A study of Mus musculus with 2 samples.

Results

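The genes studied here were the retinoic acid (RA) receptors Rara, Rarb and Rarg, their heterodimer partners Rxra and Rxrb, and the corepressor Ncor1. They were taken by name and made up 6 of the 32285 genes counted in each library. RA is a derivative of vitamin A that enters the nucleus and binds RAR proteins, which sit on DNA as dimers with an RXR protein. Without ligand the dimer holds a corepressor complex built around NCOR1 with the histone deacetylase HDAC3, and ligand exchanges this complex for coactivators. RXR proteins also pair with other nuclear receptors, such as the oxysterol receptors LXR in macrophages and the PPARs in hepatocytes, and RA signaling is known to regulate dormancy in hematopoietic stem cells.

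Single cells of the mouse fetal liver (CD1 strain, E14.5) were compared between embryos with an intact Nfkbia gene (WT, a pool of 2 embryos) and embryos of the IκBα KO line, which lack the NF-κB inhibitor encoded by Nfkbia (a pool of 3). Livers were lineage depleted and sorted for LSK cells (lineage-negative, SCA1-positive, cKIT-positive), although the sample titles name LT-HSCs, and were run on the 10x 3' platform. Since a genotype was a single library, nothing was tested, and embryo, library and genotype cannot be told apart. Nfkbia itself had 1474 UMIs in WT and 7 UMIs in KO cells, or 13.6 and 0.0709 CPM (counts scaled to a common total of UMIs over the cells concerned).

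Every cell deep enough (at least 5000 UMIs) was assigned to a class from marker genes, and 3401 WT and 4316 KO cells entered. A cell passed the gate of a class when at least 2.5 of its markers were expected to be seen at a depth of 5000 UMIs. The classes shown held 20 or more cells in each library. Outside the stem and multipotent cells these were erythroid progenitor-like (693 WT and 790 KO cells), erythroblast-like (843 and 1359), megakaryocyte-like (25 and 65), macrophage-like (43 and 85), endothelial-like (52 and 68) and hepatocyte-like cells (32 and 71). The stem-like (309 and 292), lymphoid-primed-like (24 and 36), neutrophil-primed-like (195 and 261) and monocyte and dendritic progenitor-like classes (30 and 29) and the cells that passed no gate (ungated, 1098 and 1160) served for comparison. All 8 markers of the macrophage, endothelial and hepatocyte lists were detected in their classes in both libraries, but these markers also set the gates. Markers of other lists were present too. In WT and KO endothelial-like cells the stem-like markers summed to 1025 and 939 CPM, beside 3289 and 2813 CPM for the endothelial markers. In hepatocyte-like cells the erythroblast markers summed to 2100 and 1380 CPM, beside 60980 and 64920 CPM for the hepatocyte markers. Kit mRNA lay at 124 and 112 CPM in WT and KO stem-like cells but at 5.70 and 11.8 CPM in hepatocyte-like cells. In endothelial-like cells Kit differed between the libraries, at 4.71 CPM (4 UMIs) in WT and 35.2 CPM (36 UMIs) in KO. Ly6a, which encodes SCA1, lay at 36.4 and 51.8 CPM in stem-like cells against 0.473 and 0.557 CPM in erythroid progenitor-like cells. How cells with little Kit or Ly6a mRNA came through the sort was not tested. Of 54 WT and 99 KO mixed cells, which passed several gates with no clear lead, none was used.

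The libraries differed in depth, with a median of 28065 UMIs per kept cell in WT and 19560 in KO, and 17.4% of KO cells against 0.116% of WT cells carried Y-linked UMIs without Xist. Of the barcodes kept, 6 occurred in both libraries. All intervals are 95% intervals for counting error only, exact Poisson for a level and exact conditional for a ratio. One UMI marks 1 RNA molecule caught at its 3' end, so levels of different genes are compared without scaling to length.

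The positions of the genes show how far their reads can be told from those of neighbours. On GRCm38, Rara (ENSMUSG00000037992) lies on chromosome 11 from 98927818 to 98974942 on the plus strand, Rarb (ENSMUSG00000017491) on chromosome 14 from 16430839 to 16819156 on the minus strand, and Rarg (ENSMUSG00000001288) on chromosome 15 from 102234938 to 102257517 on the minus strand. Rxra (ENSMUSG00000015846) lies on chromosome 2 from 27676440 to 27762957 and Rxrb (ENSMUSG00000039656) on chromosome 17 from 34031812 to 34038399, both on the plus strand, and Ncor1 (ENSMUSG00000018501) on chromosome 11 from 62316426 to 62458541 on the minus strand. All 6 are protein-coding. The 3' end of Rarb overlaps that of Top2b on the opposite strand, and Ncor1 overlaps Ttc19 and Pigl on the opposite strand. Top2b, a topoisomerase, was at 114 and 123 CPM in WT and KO endothelial-like cells and at 111 and 110 CPM in erythroid progenitor-like cells, where Rarb had 3 and 0 UMIs, so Rarb UMIs did not follow the Top2b level.

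Rarb is a classical target of its own pathway, and its promoter is shown because it carried the element that RAR/RXR dimers are known to bind. In the RefSeq promoters (GRCm38.p6, 250 bases before to 50 bases after a start), pairs of direct repeats of the half-site AGGTCA, of its variant GGGTCA, of the variant AGTTCA and of the variant GGTTCA, in any combination, were searched on both strands with a spacer of 1, 2 or 5 bases. All 6 genes matched, with 13 promoters. A pair with 5 bases between the half-sites occurred in 1 of these, that of Rarb, 53 to 37 bases before the start, and in 0.0974% of all 32851 promoters. Pairs with 1 or 2 bases between them were in 0.222% and 0.268% of all promoters and in none of the 13. A single half-site was present in 43.7% of promoters. The RefSeq start of Rarb used here lies within the gene span given above, whose 5′ end on the minus strand is at 16819156. UMIs from the 3′ end do not tell which start was used. The 120 bases before this start (chr14:16575477-16575596, minus strand) are given 5′ to 3′ with both half-sites in capitals:
Rarb: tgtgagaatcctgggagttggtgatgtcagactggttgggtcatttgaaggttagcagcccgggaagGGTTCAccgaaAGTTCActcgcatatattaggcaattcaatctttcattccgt
The match describes these letters and does not show that a receptor was bound there in these cells.

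Rarb, the receptor whose gene responds to RA, was concentrated in endothelial-like cells. It reached 23.6 CPM (20 UMIs, interval 14.4 to 36.4) in WT and 25.4 CPM (26 UMIs, 16.6 to 37.3) in KO endothelial-like cells. In each of the other classes it lay between 0 and 3.42 CPM. The class supplied 43.5% of all WT and 57.8% of all KO UMIs of Rarb, while it held 0.785% and 1.04% of all UMIs. Against all other cells of the same library, its log2 ratio was 6.60 (5.68 to 7.50) in WT and 7.03 (6.12 to 7.97) in KO, and it exceeded each of the 10 other classes in both libraries with an interval of the ratio above 0. After thinning to 5000 UMIs, 5 of 52 WT cells (9.62%, 3.196 to 21.0) and 7 of 68 KO cells (10.3%, 4.24 to 20.1) had a Rarb UMI, against 12 (23.1%) and 15 (22.1%) before thinning. Erythroblast-like cells, with a median of 25432 and 18462 UMIs against 13798.5 and 12598 UMIs in endothelial-like cells, had 1 and 2 Rarb UMIs in all, and none was left after thinning. By the floor of 3 counts, 0 of 843 and 0 of 1359 thinned cells allow shares of cells with a UMI of up to 0.356% and 0.221%, which limits detection at 5000 UMIs and not expression. No endothelial-like cell had more than 4 Rarb UMIs, so the level did not rest on a single cell.

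Hepatocyte-like cells came next in WT, with 6 Rarb UMIs in 6 of 32 cells (3.42 CPM, 1.25 to 7.44), whereas KO hepatocyte-like cells had 1 UMI in 71 cells (0.406 CPM, 0.0103 to 2.26). The log2 ratio of these 7 UMIs was -3.07 (-8.60 to -0.03), under the minimum of 20 UMIs set for a comparison. In erythroid progenitor-like cells 3 WT UMIs and 0 KO UMIs were counted, both at or under the floor of 3 UMIs, and no fold is given. Rarb was at 0 UMIs in both libraries in lymphoid-primed-like, neutrophil-primed-like and monocyte and dendritic progenitor-like cells, where the floor was 4.54 and 5.01, 0.415 and 0.447, and 3.21 and 5.27 CPM. In the endothelial-like class the genotypes were close, at a log2 KO/WT of 0.11 (-0.79 to 1.03).

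Rarg, the receptor associated with stem cell renewal in adult marrow, had its highest level in endothelial-like cells too. It lay there at 28.3 CPM (24 UMIs, 18.1 to 42.1) in WT and 18.6 CPM (19 UMIs, 11.2 to 29.0) in KO. The WT value was above each of the 10 other classes, and the KO value above 8 of them. Megakaryocyte-like cells followed in WT with 9.11 CPM (10 UMIs, 4.37 to 16.8) and had 10.8 CPM (27 UMIs, 7.14 to 15.8) in KO. Monocyte and dendritic progenitor-like cells had 4.28 CPM (4 UMIs, 1.17 to 10.9) and 14.0 CPM (8 UMIs, 6.06 to 27.7), and in KO the intervals of the ratio to both neighbours in the order held 0. The stem-like level was 3.27 CPM (1.83 to 5.39) for WT and 5.06 CPM (2.89 to 8.21) for KO cells. The erythroid lineage was nearly without it, since 0 of the 31690303 UMIs of WT erythroid progenitor-like cells and 4 of the 25126920 UMIs of their KO counterparts were Rarg, with an interval up to 0.116 CPM in WT and a level of 0.159 CPM (0.0434 to 0.408) in KO. Erythroblast-like cells had 0.241 and 0.306 CPM, and macrophage-like cells 1.81 and 1.08 CPM from 3 and 2 UMIs. Megakaryocyte-like cells thus stood 2.81 (1.72 to 3.73) and 2.85 (2.20 to 3.45) above all other cells on the log2 scale, in the same range in both libraries.

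Rara, the most widely expressed of the 3 RAR genes, was found in stem-like, lymphoid-primed-like, macrophage-like and endothelial-like cells. The endothelial-like class led in WT with 18.8 CPM (16 UMIs, 10.8 to 30.6), and the lymphoid-primed-like class led in KO with 28.4 CPM (17 UMIs, 16.5 to 45.4). Lymphoid-primed-like cells had 18.2 CPM (12 UMIs, 9.38 to 31.7) in WT, and endothelial-like cells 26.4 CPM (27 UMIs, 17.4 to 38.4) in KO. Macrophage-like cells had 13.3 CPM (22 UMIs, 8.33 to 20.1) in WT and 20.5 CPM (38 UMIs, 14.51 to 28.1) in KO. The intervals of the ratios between neighbours among these 3 classes held 0 in both libraries. Stem-like cells lay at 12.4 CPM (57 UMIs) in WT and 12.3 CPM (39 UMIs) in KO, which was not separable from the macrophage-like level in WT but lower in KO (log2 ratio of macrophage-like to stem-like cells 0.73, 0.05 to 1.42). The lymphoid-primed-like class was the least secure, since 18 of its 24 WT and 22 of its 36 KO cells passed the gate by less than 0.5 of a marker. Dntt, a marker of that list, had 0 UMIs in both libraries.

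Rara was low in the erythroid lineage. Erythroid progenitor-like cells had 1.48 CPM (47 UMIs, 1.09 to 1.97) in WT and 1.55 CPM (39 UMIs, 1.10 to 2.12) in KO, and erythroblast-like cells had 0.641 CPM (16 UMIs, 0.367 to 1.04) and 0.748 CPM (22 UMIs, 0.469 to 1.13). Compared with all other cells of the library, the erythroblast-like level had a log2 ratio of -2.86 (-3.68 to -2.14) in WT and -2.90 (-3.59 to -2.28) in KO. Erythroid progenitor-like and erythroblast-like cells together form most of the UMIs in these libraries, and the mean over all cells was 3.73 CPM in WT and 4.15 CPM in KO. Megakaryocyte-like cells had 1 and 3 Rara UMIs, so Rarg was the main RAR transcript of that class. Hepatocyte-like cells had 6.27 CPM (11 UMIs) in WT and 11.4 CPM (28 UMIs) in KO.

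**Figure D1:**
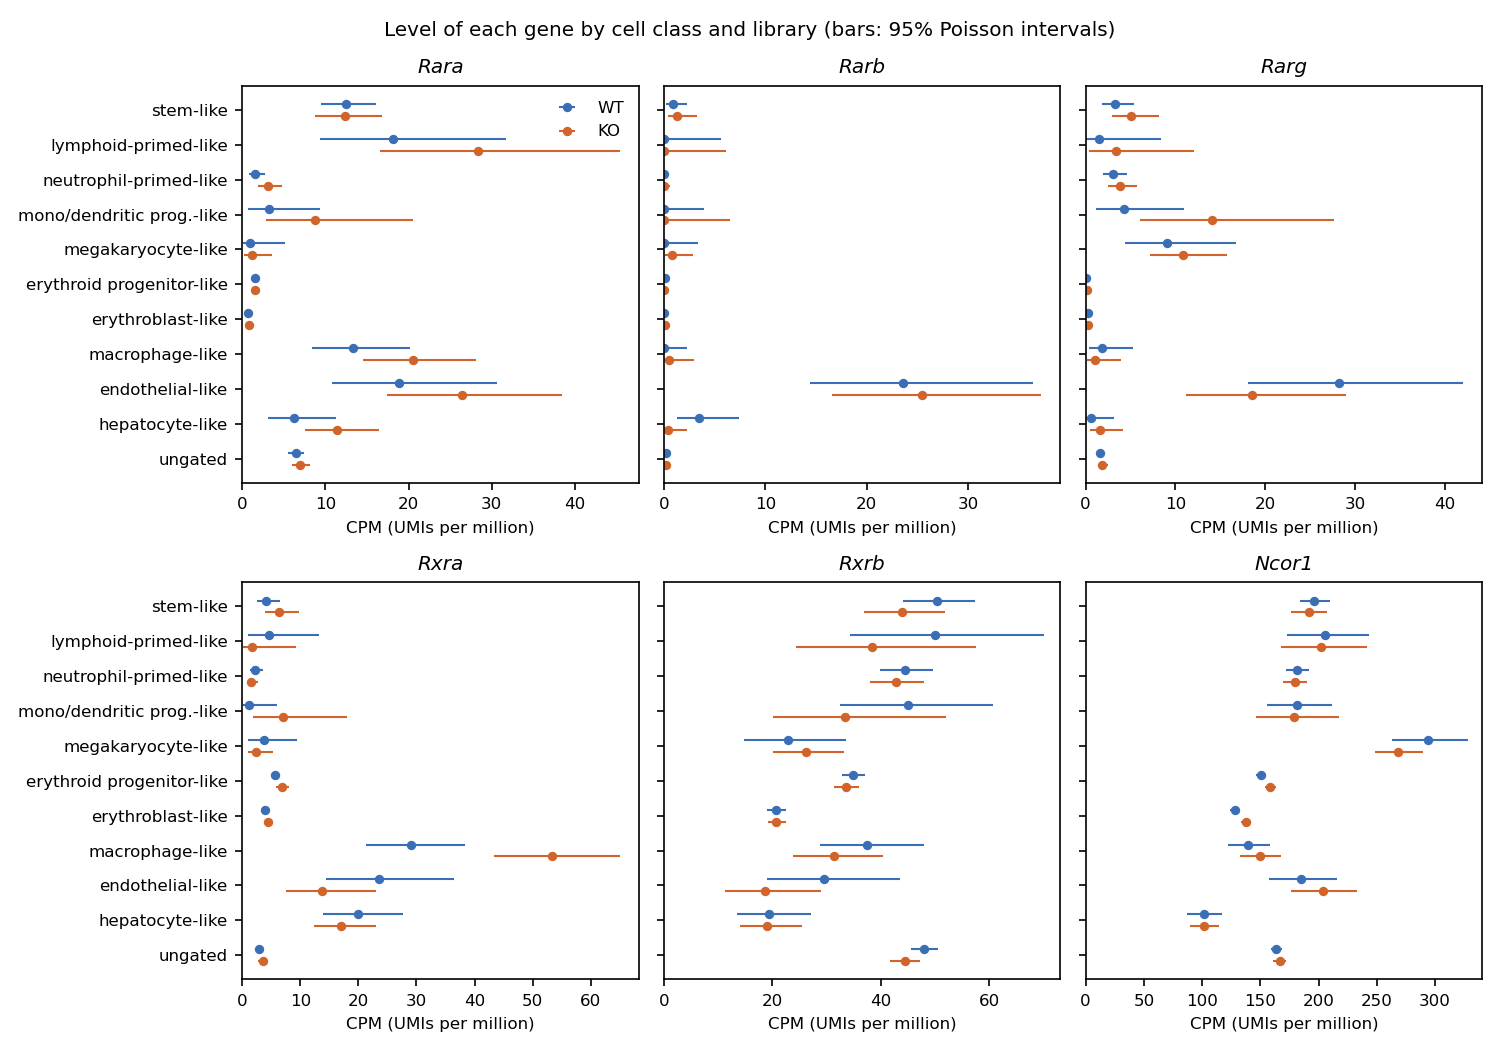
Level in CPM (x axis) of the 3 RAR genes, Rxra, Rxrb and Ncor1 in 11 cell classes (y axis) in the WT (blue) and KO (orange) library, with bars for 95% Poisson intervals. Rarb reaches 23.6 and 25.4 CPM in WT and KO endothelial-like cells and at or under 3.42 CPM in the other classes, while Ncor1 is above 100 CPM in every class.

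Of the RXR genes, Rxra, which encodes the main RXR of liver and macrophages, was highest in macrophage-like, endothelial-like and hepatocyte-like cells in both libraries. It lay at 29.0 CPM (48 UMIs, 21.4 to 38.4) in WT and 53.4 CPM (99 UMIs, 43.4 to 65.0) in KO macrophage-like cells. Hepatocyte-like cells had 19.9 CPM (35 UMIs, 13.9 to 27.7) and 17.04 CPM (42 UMIs, 12.3 to 23.0), and endothelial-like cells had 23.6 CPM (20 UMIs, 14.4 to 36.4) and 13.7 CPM (14 UMIs, 7.49 to 23.0). In WT the 3 classes could not be ordered, because the intervals of the ratios between neighbours held 0, and each exceeded the 8 remaining classes. In KO the macrophage-like class was above all 10 others, while the endothelial-like and hepatocyte-like classes were each above 7, and the ratio of endothelial-like to monocyte and dendritic progenitor-like cells had an interval that held 0 (log2 ratio 0.96, -0.71 to 3.02). Erythroid progenitor-like cells had 5.65 and 6.85 CPM and erythroblast-like cells 3.93 and 4.46 CPM, beside 4.14 and 6.32 CPM in stem-like cells.

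After thinning, 10 of 43 WT macrophage-like cells (23.3%, 11.8 to 38.6) and 29 of 85 KO cells (34.1%, 24.2 to 45.2) had an Rxra UMI, against 62.8% and 64.7% without thinning. The same share in erythroblast-like cells was 1.19% and 1.69%. The highest count in a macrophage-like cell was 5 UMIs in WT and 6 in KO.

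Rxrb, the RXR gene transcribed in most tissues, had the flattest profile of the receptors. It ranged from 19.4 to 50.3 CPM over the WT classes and from 18.6 to 44.3 CPM over the KO classes. Stem-like cells had 50.3 CPM (231 UMIs, 44.0 to 57.3) in WT and 43.9 CPM (139 UMIs, 36.9 to 51.9) in KO, and the neutrophil-primed-like class was close at 44.5 and 42.8 CPM. Its level was lower in erythroblast-like cells, at 20.6 CPM (515 UMIs, 18.9 to 22.5) and 20.7 CPM (609 UMIs, 19.1 to 22.4), than in erythroid progenitor-like cells, at 34.9 (32.9 to 37.0) and 33.6 CPM (31.4 to 35.9). Hepatocyte-like cells were at 19.4 and 19.1 CPM. Rxrg, the remaining RXR gene, had at most 2 UMIs in any class.

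The balance of the families differed between classes. Summed over the 3 RAR genes, endothelial-like cells had 70.7 CPM (60 UMIs, 53.9 to 91.0) in WT and 70.4 CPM (72 UMIs, 55.1 to 88.7) in KO. Macrophage-like cells had 15.1 and 22.1 CPM, hepatocyte-like cells 10.3 and 13.4 CPM, erythroid progenitor-like cells 1.58 and 1.71 CPM and erythroblast-like cells 0.922 and 1.12 CPM. The summed RXR genes varied far less, from 24.6 to 66.4 CPM in WT and from 25.2 to 84.7 CPM in KO. Erythroid progenitor-like cells therefore had 25.7 RXR UMIs (19.4 to 34.8) for each RAR UMI in WT and 23.6 (17.4 to 32.9) in KO, and erythroblast-like cells 26.7 (17.6 to 42.4) and 22.4 (15.8 to 32.8). Stem-like cells had 3.29 (2.54 to 4.31) and 2.69 (1.99 to 3.70). Endothelial-like cells had 0.750 (0.498 to 1.12) in WT and 0.458 (0.294 to 0.701) in KO, and were the only class shown with a ratio under 1, with an interval that held 1 in WT but not in KO.

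The RAR family in endothelial-like cells was shared among its 3 members. Of the RAR UMIs there, 26.7% were Rara, 33.3% Rarb and 40.0% Rarg in WT, and 37.5%, 36.1% and 26.4% in KO. In macrophage-like cells Rara supplied 88.0% (68.8 to 97.5) in WT and 92.7% (80.1 to 98.5) in KO, and in stem-like cells 75.0% (63.7 to 84.2) and 66.1% (52.6 to 77.9). A UMI of any RAR gene was seen in 31 of 52 WT and 42 of 68 KO endothelial-like cells, and UMIs of at least 2 RAR genes in 11 and 12 of them. Within the RXR family, Rxra supplied 43.6% (34.2 to 53.4) of the UMIs in WT and 63.1% (55.0 to 70.6) in KO macrophage-like cells, 50% and 47.2% in hepatocyte-like cells, and 16.0% (13.2 to 19.1) and 17.7% (15.0 to 20.6) in erythroblast-like cells.

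**Figure D2:**
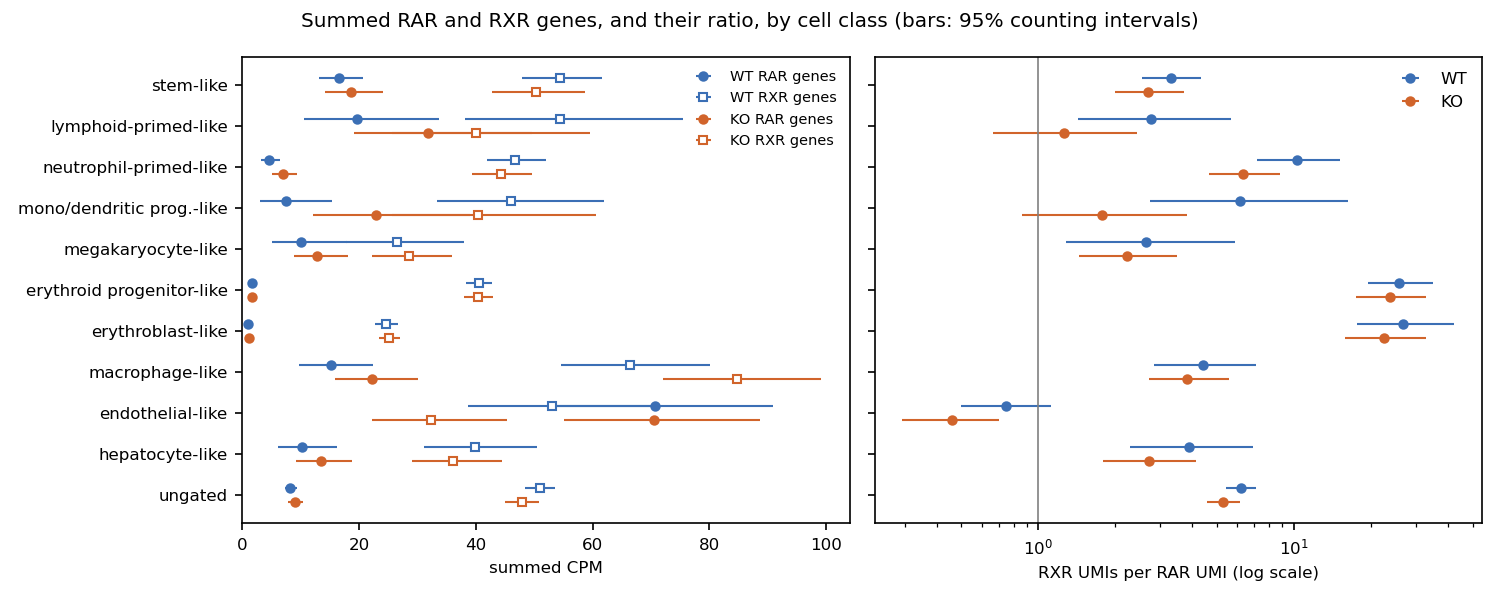
Left, summed CPM of the RAR genes (filled circles) and RXR genes (open squares) per cell class and library (WT blue, KO orange). Right, RXR UMIs per RAR UMI on a log scale with a line at 1, where endothelial-like cells lie at 0.750 in WT and 0.458 in KO and erythroid progenitor-like cells at 25.7 and 23.6. Bars are 95% counting intervals.

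Ncor1, the scaffold of the corepressor complex, was the most abundant of the 6 transcripts in each class. Its level was highest in megakaryocyte-like cells, at 294 CPM (323 UMIs, 263 to 328) in WT and 268 CPM (668 UMIs, 248 to 289) in KO, above each of the 10 other classes in both libraries. Hepatocyte-like cells were lowest, with 101 CPM in both libraries (178 UMIs, 87.1 to 117, and 250 UMIs, 89.3 to 115). Erythroblast-like cells had 128 CPM (124 to 133) and 138 CPM (133 to 142), below erythroid progenitor-like cells at 151 CPM (146 to 155) and 159 CPM (154 to 164). The remaining classes lay between 139 and 206 CPM, and the neighbours in this middle range mostly could not be ordered. Clustering in place of the gate gave a broader megakaryocyte-like class (233 and 314 cells) with a lower Ncor1 level, 190 CPM in WT and 191 CPM in KO.

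The levels of each gene over the 11 classes were correlated between the WT and KO library. Outside endothelial-like cells Rarb had at most 7 UMIs per class and library, and Rxra differed 1.84-fold in macrophage-like cells. As a description over 11 classes, which share their library and depth within each genotype, Pearson's r of log2(CPM + 1) was 0.98 for Ncor1, 0.97 for Rara, 0.91 for Rarg, 0.90 for Rarb, 0.89 for Rxrb and 0.80 for Rxra.

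Genotypes were then compared gene by gene and class by class. Of 66 pairs of gene and class, 45 had at least 20 UMIs over both libraries. Of these, 10 were past 1.5-fold, 7 higher and 3 lower in KO, and 1 of the 10 had an interval without 0. In stem-like cells 2 of 5 genes were past 1.5-fold, Rarg and Rxra, both of which changed sign under another gate, at a background of 8.45% of all genes with enough UMIs. The counts were 1 of 3 in lymphoid-primed-like cells (background 18.5%), 1 of 5 in neutrophil-primed-like cells (7.37%), 0 of 2 in monocyte and dendritic progenitor-like cells (18.1%), 0 of 3 in megakaryocyte-like cells (15.5%), 0 of 4 in erythroid progenitor-like cells (6.96%) and 0 of 4 in erythroblast-like cells (8.98%). They were 2 of 4 in macrophage-like cells (16.8%), 3 of 6 in endothelial-like cells (17.8%), 1 of 4 in hepatocyte-like cells (14.1%) and 0 of 5 in ungated cells (7.32%). The background genes were not matched to these genes by number of UMIs. A higher share than the background therefore cannot be read as an excess.

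In the macrophage-like class that stricter share was 8.09% of all genes, and Rxra was the gene that met it, with a log2 KO/WT at 0.88 (0.37 to 1.41). Intervals of the levels did not overlap between 29.0 CPM in WT and 53.4 CPM in KO. Other features of the class moved with it. The 8 macrophage markers (C1qa, C1qb, C1qc, Cd5l, Timd4, Adgre1, Cd163 and Marco) together made up 4177 and 5710 CPM in WT and KO, the median depth was 36604 UMIs in WT and 17313 in KO, and the erythroblast markers summed to 835 and 2096 CPM. Scaled to the UMIs of the macrophage markers, Rxra had 6.94 UMIs per 1000 marker UMIs in WT and 9.36 in KO, a log2 KO/WT of 0.43 (-0.08 to 0.96). In cells at or under the median depth of the class in both libraries (20148 UMIs, 13 WT and 51 KO cells) the levels were 66.8 CPM (11 UMIs) and 72.8 CPM (49 UMIs), which is 0.12 (-0.84 to 1.22) as a log2 ratio. In deeper cells (30 and 34) they were 24.8 and 42.4 CPM, or 0.77 (0.13 to 1.43). The ratio was thus past 1.5-fold in the deeper cells but not in the shallower cells or on the marker scale, and the part of depth, marker level and erythroblast RNA in it was not tested. Without the Scrublet doublet calls it was 1.00 (0.48 to 1.54), and in Xist-positive cells lacking Y-linked UMIs 0.85 (0.24 to 1.46). Under the looser gate it was 0.52 (-0.06 to 1.12).

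**Figure D3:**
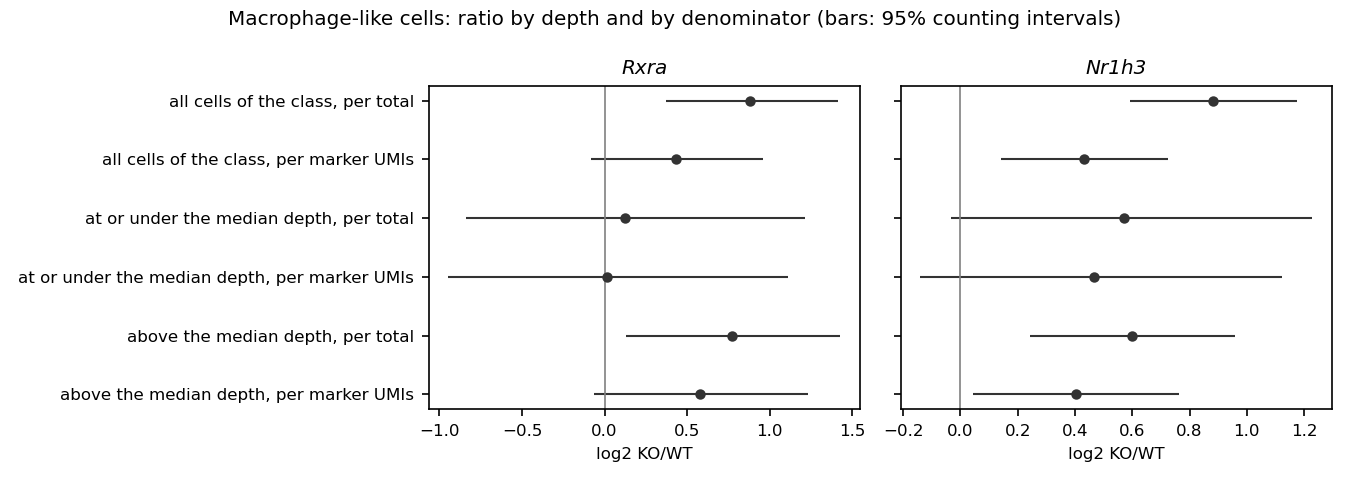
Log2 KO/WT in macrophage-like cells (x axis) of Rxra and of its partner receptor gene Nr1h3, in all cells, in cells at or under and in cells above the median depth, per total UMIs or per UMIs of the macrophage markers (rows). Bars are 95% counting intervals. Rxra goes from 0.88 in all cells per total UMIs to 0.43 per marker UMIs and 0.12 in the shallower cells.

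Nr1h3, which encodes the oxysterol receptor LXRα and pairs with RXR, was itself a macrophage-like gene, at 88.8 CPM (147 UMIs) in WT and 164 CPM (303 UMIs) in KO. Its log2 KO/WT was 0.88 (0.59 to 1.18) per total UMIs and 0.43 (0.14 to 0.72) per marker UMIs. In hepatocyte-like cells it was at 18.8 and 21.9 CPM. Rara in macrophage-like cells was past 1.5-fold as well, at 0.63 (-0.17 to 1.45), while Rxrb was at -0.26 (-0.80 to 0.28) and Ncor1 at 0.10 (-0.16 to 0.36).

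In endothelial-like cells the genes past 1.5-fold were all lower in KO, and none had an interval without 0. The log2 KO/WT was -0.78 (-1.88 to 0.28) for Rxra, -0.66 (-1.61 to 0.26) for Rxrb and -0.61 (-1.55 to 0.32) for Rarg. Rara, at 0.49 (-0.46 to 1.48), and Ncor1, at 0.14 (-0.17 to 0.45), had positive values. For Rxra, Rxrb and Rarg the values rested on 14 to 25 UMIs per library, and their intervals did not settle the sign. Kit also differed between the libraries in this class (4.71 and 35.2 CPM in WT and KO), and its part in these values was not tested. In hepatocyte-like cells Rara was at 0.86 (-0.19 to 2.01), Rxra at -0.23 (-0.91 to 0.46), Rxrb at -0.02 (-0.69 to 0.66) and Ncor1 at 0.00 (-0.28 to 0.29).

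In erythroid progenitor-like cells the log2 KO/WT was 0.07 (-0.59 to 0.71) for Rara, 0.28 (-0.03 to 0.59) for Rxra, -0.06 (-0.19 to 0.08) for Rxrb and 0.08 (0.02 to 0.14) for Ncor1. In erythroblast-like cells it was 0.22 (-0.77 to 1.25) for Rara, 0.18 (-0.21 to 0.57) for Rxra, 0.00 (-0.17 to 0.18) for Rxrb and 0.10 (0.03 to 0.17) for Ncor1. The Ncor1 intervals left out 0 in both classes, at differences far under 1.5-fold, and under the looser gate the erythroid progenitor-like value turned to -0.085. For Rxrb and Ncor1 the intervals in both classes excluded a 1.5-fold difference in either direction.

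Rara had a higher value in KO in 8 of the 9 classes with enough UMIs, the exception being stem-like cells at -0.01 (-0.64 to 0.60), and the largest was 1.04 (-0.08 to 2.24) in neutrophil-primed-like cells, from 11 and 21 UMIs. Among all genes with enough UMIs, more lay above 0 than below in each class, for example 6965 and 4384 in erythroblast-like cells. The margin was small in megakaryocyte-like cells (4236 and 4186), and all classes share 1 library per genotype. Each of the 9 Rara intervals held 0. The sign turned under other settings in both erythroid classes, to -0.25 under the looser gate in erythroid progenitor-like cells and to -0.69 among Xist-positive cells in erythroblast-like cells. In stem-like cells Rarg was at 0.63 (-0.48 to 1.75) but at -0.57 under the stricter gate, and Rxra at 0.61 (-0.37 to 1.60) but at -0.077 under the looser gate. Rxrb was at -0.20 (-0.51 to 0.11) and Ncor1 at -0.04 (-0.19 to 0.11). Over all cells the class composition differed between the libraries. There the log2 KO/WT was 0.16 (-0.05 to 0.36) for Rara, 0.10 (-0.53 to 0.72) for Rarb and 0.34 (0.01 to 0.67) for Rarg. It was 0.35 (0.18 to 0.52) for Rxra, -0.17 (-0.24 to -0.10) for Rxrb and 0.05 (0.02 to 0.08) for Ncor1.

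**Figure D4:**
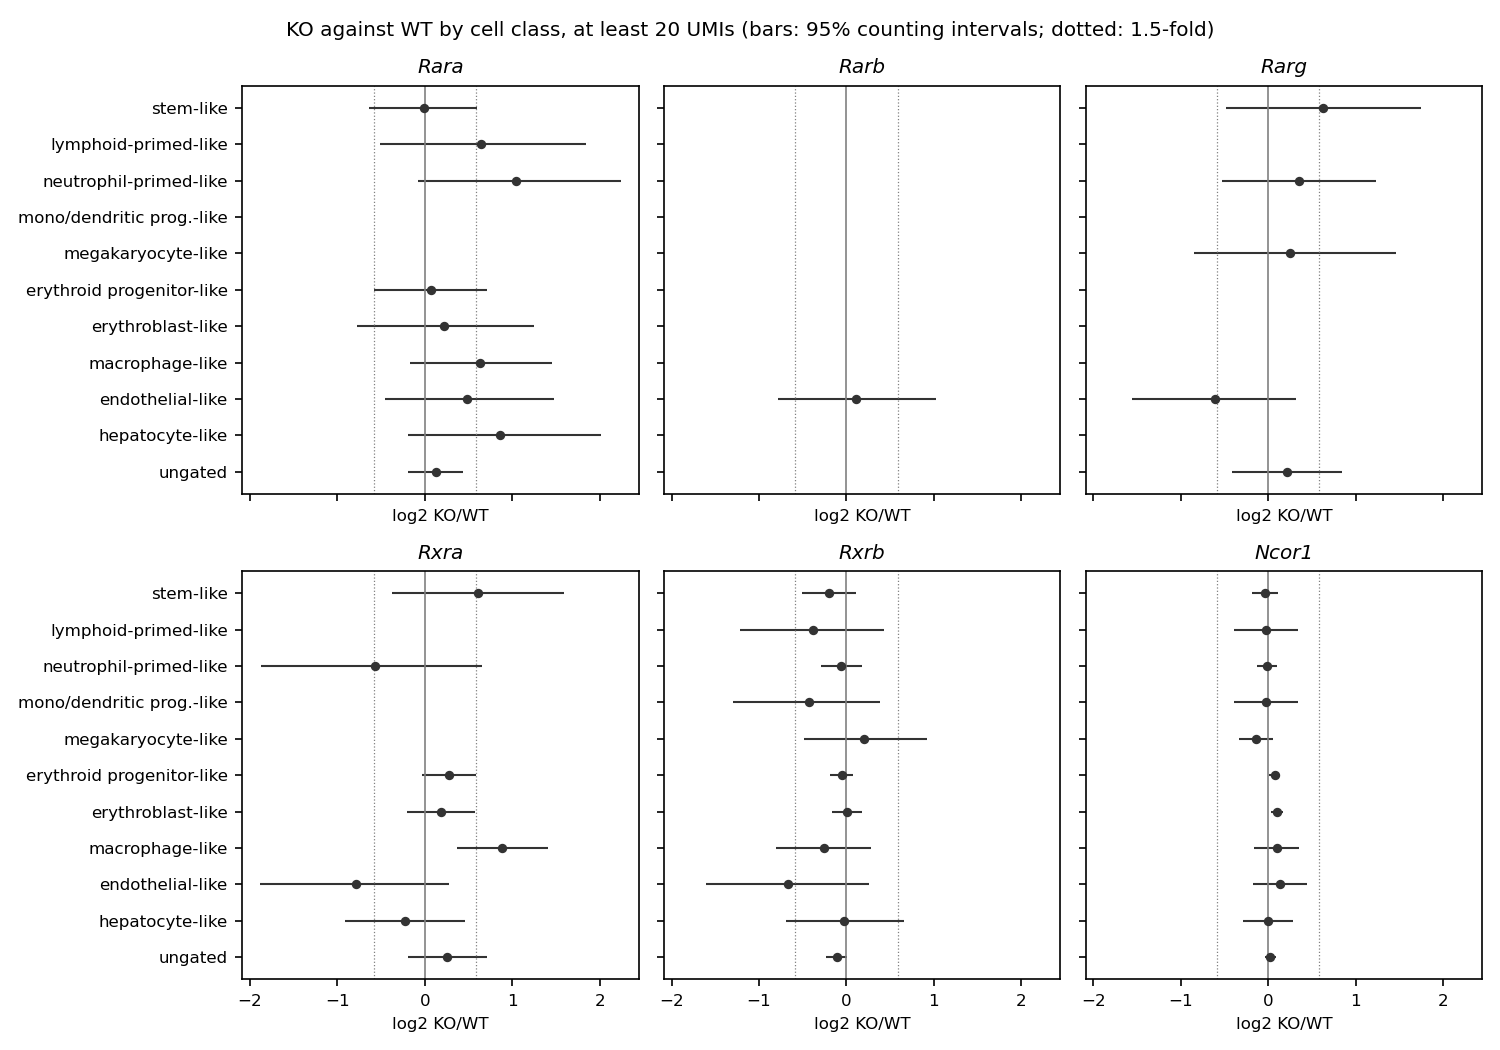
Log2 KO/WT (x axis) of each gene in each class (y axis) with at least 20 UMIs over both libraries, with 95% counting intervals as bars and dotted lines at 1.5-fold. Rxra in macrophage-like cells, at 0.88, is the only point past 1.5-fold whose interval leaves out 0.

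The rest of the pathway was read by lists, with a gene called where it was past 1.5-fold with an interval without 0. That share among all genes was 3.18% in stem-like, 5.78% in lymphoid-primed-like, 3.23% in neutrophil-primed-like, 5.01% in monocyte and dendritic progenitor-like, 5.83% in megakaryocyte-like, 3.49% in erythroid progenitor-like, 4.78% in erythroblast-like, 5.72% in endothelial-like, 4.87% in hepatocyte-like and 3.67% in ungated cells. Over all classes 4.71% of the pairs of gene and class were called. The median log2 KO/WT of all genes in a class lay between 0.00 and 0.05.

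The corepressor complex, a list of 10 genes that includes Ncor1, had 109 pairs with enough UMIs, of which 1 was higher and 6 lower in KO, and class medians from -0.11 to 0.27. Hdac1, a histone deacetylase, supplied 5 of the 6. It was lower in KO in 11 of 11 classes by value. These classes share 1 library per genotype, and how many of all genes kept 1 sign over them was not counted. For example, Hdac1 was at 93.6 and 59.9 CPM in macrophage-like cells, a log2 KO/WT of -0.64 (-1.01 to -0.28). In endothelial-like cells it was at 179 and 101 CPM, a log2 KO/WT of -0.83 (-1.20 to -0.46). Hdac3, the deacetylase bound by NCOR1, was at 45.4 and 21.7 CPM in lymphoid-primed-like cells (-1.07, -2.13 to -0.08) and was not called elsewhere. Of the coactivators, a list of 8 genes, 1 of 79 pairs was called, Crebbp in hepatocyte-like cells (23.4 and 38.1 CPM, 0.71, 0.16 to 1.27), and class medians lay between -0.16 and 0.66. Of the 13 partner receptors of RXR, 2 of 53 pairs were called, Nr1h3 in macrophage-like cells and Thra, a thyroid hormone receptor gene, in endothelial-like cells (66.0 and 41.1 CPM, -0.68, -1.30 to -0.08). Class medians of this list, in classes with 3 or more of its genes, lay between -0.17 and 0.32.

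Of the genes for retinoid supply and breakdown, a list of 16, 5 of 64 pairs were called higher and 1 lower in KO, and class medians ranged from -0.52 to 0.36. Rbp4, which encodes the retinol carrier of plasma, was at 7709 and 7182 CPM in hepatocyte-like cells and between 1.07 and 68.3 CPM in the other classes. It was called in stem-like cells (4.36 and 9.17 CPM), in ungated cells (3.84 and 6.85 CPM) and, in the other direction, in endothelial-like cells (68.3 and 37.2 CPM). The 8 hepatocyte markers moved the same way in these classes, with sums of 63.2 and 132.8 CPM in stem-like, 45.3 and 80.2 CPM in ungated and 328.6 and 232.8 CPM in endothelial-like cells. At least 7 of the 8 were detected in each of these classes and libraries, and their part in the Rbp4 values was not tested. Aldh1a3, an enzyme that makes RA, was called in stem-like cells (2.40 and 8.22 CPM, 1.78, 0.71 to 2.94) and in ungated cells (6.13 and 10.1 CPM, 0.72, 0.44 to 1.01). Dhrs3, which reduces retinal and is induced by RA, was highest in megakaryocyte-like cells at 89.3 and 83.9 CPM, and was called in hepatocyte-like cells (25.6 and 42.6 CPM, 0.73, 0.22 to 1.27).

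Of 12 known RA target genes, Rarb and Dhrs3 included, 7 of 31 pairs were called, all higher in KO. Tgm2, a transglutaminase induced by RA in several cell types, gave 5 of them. It was at 5.59 CPM (177 UMIs) in WT and 11.9 CPM (300 UMIs) in KO erythroid progenitor-like cells, a log2 KO/WT of 1.10 (0.82 to 1.37), and at 13.9 and 24.8 CPM in macrophage-like cells (0.84, 0.09 to 1.63). In stem-like cells it was at 3.05 and 10.4 CPM (1.77, 0.83 to 2.79). Endothelial-like cells differed, with 23.6 and 16.6 CPM (-0.50, -1.53 to 0.50). Dhrs3 in hepatocyte-like cells, given above, was another. Class medians of the list ranged from -0.33 to 0.57 and rested on at most 4 genes.

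Genes with the most similar profile over the 22 class and library values were sought for each gene with at least 20 UMIs in 5 or more classes, among 13597 genes with at least 50 UMIs. The values of a library share its depth and those of a class its cells, so these Pearson correlations of log2(CPM + 1) are descriptions. For Rara they were Abl1 (0.95), Rgl1 (0.93) and Map4k4 (0.91). For Rarg they were Socs1 (0.92), Nrbp1 (0.90) and Cnn2 (0.89). For Rxra they were Clcn5 (0.91), Lpl (0.90) and Mertk (0.88), of which Mertk, a phagocytosis receptor, ranged from 0 to 44.8 CPM and Lpl, lipoprotein lipase, from 0 to 657 CPM. For Rxrb they were the ribosomal protein genes Rpl35a (0.94) and Rpl10a (0.93) and Def6 (0.92), and for Ncor1 they were Tmem123 (0.87), Akirin2 (0.87) and Sfpq (0.87). By Spearman correlation none of the 3 genes named for Rxra, and none of those named for Ncor1, was among the 3 most similar.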

How the data were processed

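The authors aligned each library with Cell Ranger 6.0.0 to mouse GRCm38 and deposited unnormalized UMI counts for each gene in each cell. The annotation release is not given in the sources used here. Those counts were used unscaled, with 0 columns of other samples. WT had 3840 barcodes and 109122324 UMIs, KO 4928 barcodes and 100029143 UMIs. The filter required 1000 detected genes and no more than 20% mitochondrial UMIs, leaving 3458 and 4417 cells. Classes were rebuilt here from lists of 8 markers (7 found for erythroblasts). Where both gates of a related pair passed, the first gave way to the second whatever the lead. Stem-like gave way to endothelial-like, monocyte and dendritic progenitor-like to macrophage-like, and erythroid progenitor-like to erythroblast-like. A cell that then still passed several gates with a lead under 2 expected markers was mixed, and the gate threshold was settled after the cells had been seen. Scrublet called 3.90% of WT and 5.80% of KO cells doublets, which were kept. The calls were uneven over classes. They took in 3 of 32 WT and 17 of 71 KO hepatocyte-like cells, and 1 of 43 and 8 of 85 macrophage-like cells. In endothelial-like cells they were 3 of 52 and 6 of 68, and in stem-like cells 0 of 309 and 1 of 292. UMIs were summed per class and scaled to CPM. Ratios were compared from 20 UMIs upward over both libraries, with no fold where both were at or under 3 UMIs. Interval coverage was checked on counts simulated as Poisson draws, which hold no variation between cells or embryos, so the check covers counting error only. Tools were R 4.3.3, Seurat 5.3.0, scanpy 1.11.5, numpy 2.4.6 and scipy 1.17.1. Gene positions came from GENCODE, promoters from RefSeq. Members and lists were chosen with earlier results of these data known. Named were the 6 genes in each class, list genes with at least 50 CPM in a class or a called ratio (at most 4 per list and class, by UMIs), and the 3 genes with the most similar profile. Alternatives changed the gate, the classing (clusters), doublets, the gene filter, the scaling, the sex of the cells and the minimum of UMIs. The values of some list genes are not reported here, although the counts of their lists include them.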

Additional observations from a re-analysis of the deposited data

How the results depend on the processing

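Of 395 alternative values of 45 KO/WT ratios, 383 lay within the interval of the reported ratio, and of 1152 alternative levels 977 did. The stricter gate gave a log2 KO/WT of -0.78 for Rara and -0.57 for Rarg in stem-like cells, 0.75 for Rara (-0.25 under the looser gate) and 0.15 for Ncor1 in erythroid progenitor-like cells, and 0.37 for Ncor1 in monocyte and dendritic progenitor-like cells. The looser gate gave 0.10 for Ncor1 in neutrophil-primed-like and -0.085 in erythroid progenitor-like cells, and 1.60 for Rarg and 0.074 for Rxrb in ungated cells. Without the Scrublet calls Rara in erythroblast-like cells was at 2.41 (-0.69 in Xist-positive cells, -0.62 under the stricter gate), and by clusters Rxrb there was at -0.18. Rxra in macrophage-like cells at or under the median depth was at 0.12. The cause was not tested in any of these. The split by depth, the scaling to macrophage markers and the placing of mixed cells were chosen after seeing the data. With a minimum of 50 UMIs the share of all genes past 1.5-fold fell in each class, for example to 4.31% in stem-like and 10.96% in macrophage-like cells. Over the alternatives Rarb in endothelial-like cells ranged from 16.98 to 34.3 CPM in WT and from 18.8 to 36.7 CPM in KO, and Rara in lymphoid-primed-like cells from 0 to 28.9 and from 8.34 to 50.5 CPM. No paired analysis was possible because no result came from a test and a genotype was 1 library.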
